A study of Mus musculus with 36 samples.

Results

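The nuclear genes for subunits of oxidative phosphorylation were read in 36 RNA-seq libraries made from mouse nephron progenitor cells (NPCs). They were chosen as protein-coding genes with symbols that match names of subunits of complexes I to V, averaging 10 normalized counts or more in wild-type NPCs. The names were Ndufa, Ndufb, Ndufc, Ndufs or Ndufv with a number, Sdha to Sdhd, Uqcr, Cyc1, Cox4 to Cox8 and Atp5. Ndufab1 does not match, as no number follows Ndufa. Assembly factors named Ndufaf were dropped. These were 80 genes of the 25760 in the wild-type table: 35 of complex I, 4 of complex II, 9 of complex III, 15 of complex IV (with Ndufa4 and its isoform Ndufa4l2) and 17 of complex V (with the coupling factor gene Atp5s). Of the other matching names, 11 were processed pseudogenes, 1 was a non-coding RNA, 5 had no row in the wild-type table, and Cox7a1, at a mean of 7.70, lay just outside the minimum. Ndufa4l2, at 24.7, and Cox4i2, at 74.0, were the members nearest to it. All 80 were measured and tested in each of the 3 tables, and since the rule uses a wild-type mean over all doses, it did not use any difference between groups.

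Oxidative phosphorylation makes ATP in the inner mitochondrial membrane. Complex I (NADH dehydrogenase) and complex II (succinate dehydrogenase, also an enzyme of the citric acid cycle) feed electrons to ubiquinone, complex III passes them to cytochrome c, complex IV (cytochrome c oxidase) hands them to oxygen, and complex V (ATP synthase) uses the proton gradient that results. Most subunits are encoded in the nucleus and a few core subunits in mitochondrial DNA, except those of complex II, which are all nuclear, and some nuclear subunits exist as tissue-specific isoforms. NPCs are the Six2+ cells of the embryonic kidney that either self-renew or, upon Wnt/β-catenin signaling, begin to form nephrons.

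Primary NPCs came from pooled E16.5 kidneys of wild-type, Cas9-eGFP or β-catenin c/c mice, were enriched by depleting other cells with antibodies on magnetic beads, and were cultured in nephron progenitor expansion medium with CHIR99021 (CHIR), a GSK3 inhibitor that stabilizes β-catenin. Wild-type NPCs were held in no (0 µM), low (1.25 µM) or high (5 µM) CHIR, with 3 libraries each. In the table on β-catenin removal, β-catenin c/c NPCs received Cre mRNA (Cre) or none (no Cre), and Cas9-eGFP NPCs received sgRNAs against Ctnnb1, which encodes β-catenin, or a control sgRNA against GFP, each in low and high CHIR with 2 libraries. In the table on Tcf/Lef removal, Cas9-eGFP NPCs received sgRNAs against Tcf7l1, Tcf7l2, Tcf7 and Lef1 (quadruple knockout, QKO) or against GFP (QKO control). It held 2 QKO libraries in low CHIR and 3 in each of the other groups. Per the paper, cells spent longer in low CHIR between transfection and the change of dose for Tcf/Lef than for β-catenin removal. Transfected cells were co-transfected with mCherry mRNA and sorted for it, so a knockout group is a mixed population of edited cells and no clone. The labels do not say which replicates were separate cultures. The p-values set a difference against the spread between libraries, estimated over all groups of a table, which need not be that between cultures.

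The libraries held 13.1 to 76.1 M reads on genes (median 19 M), the deepest being wild type with no CHIR, replicate 1. NPC marker genes (Six2, Cited1, Eya1, Osr1, Meox1, Wt1 and Sall1) summed to 3516 to 31090 normalized counts, stromal markers to 310.5 to 27970, endothelial markers to 31.3 to 1197 and blood markers to 0 to 2648. Ureteric epithelium markers summed to 2360 to 5915 in wild-type NPCs in high CHIR and to at most 993.3 in every other library. In high CHIR Six2 was at 60.5, 79.6 and 65.4 normalized counts against 2716, 2979 and 3072 in low CHIR, so the defining NPC marker was far lower in the wild-type libraries of that dose. Ctnnb1 was lower with its sgRNAs in high CHIR (log2 difference -0.89, adjusted p = 0.0429) and at -1.16 in low CHIR (adjusted p = 0.252). A count over the whole Ctnnb1 gene includes exons outside the floxed part, and sgRNA edits need not lower a count, so these counts do not check the Cre or QKO groups. In high CHIR the Wnt target Lef1 fell by 3.34 on the log2 scale with Cre (adjusted p = 0.000384) and its log2 difference with QKO was -2.12 (adjusted p = 0.131).

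The promoters of 4 members are shown because the results below turn on these genes: Cox6b2, which had the largest log2 difference among members called, its constitutive partner Cox6b1, Ndufb10, the other gene called in wild-type NPCs in high CHIR, and Ndufa11, the gene called in no CHIR. Each stretch is the part of the RefSeq promoter window (GRCm38.p6) that lies before the start of the gene and outside annotated exons, 5′ to 3′ on the strand of the gene, with motif matches in capitals. It covers chr7:4753095-4753225 (minus strand) for Cox6b2, chr7:30626152-30626364 (minus strand) for Cox6b1, chr17:24724479-24724673 (minus strand) for Ndufb10 and chr17:56717686-56717761 (plus strand) for Ndufa11.
Cox6b2: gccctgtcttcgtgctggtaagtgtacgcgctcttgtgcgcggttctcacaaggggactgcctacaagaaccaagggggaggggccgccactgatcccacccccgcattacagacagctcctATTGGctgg
Cox6b1: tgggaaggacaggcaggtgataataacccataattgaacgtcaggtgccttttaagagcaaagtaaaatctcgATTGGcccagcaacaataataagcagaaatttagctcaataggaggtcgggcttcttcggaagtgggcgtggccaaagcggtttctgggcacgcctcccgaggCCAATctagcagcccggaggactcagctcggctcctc
Ndufb10: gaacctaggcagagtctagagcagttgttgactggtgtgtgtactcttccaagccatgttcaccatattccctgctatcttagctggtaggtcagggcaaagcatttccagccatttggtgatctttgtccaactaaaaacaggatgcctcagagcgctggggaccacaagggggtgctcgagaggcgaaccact
Ndufa11: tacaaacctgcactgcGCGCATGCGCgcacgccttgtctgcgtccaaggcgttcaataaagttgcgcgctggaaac
The capitals mark CCAAT boxes (CCAAT or, read on the other strand, ATTGG) in Cox6b2 and Cox6b1. In Ndufa11 they mark a run of overlapping matches to the core of the site of the nuclear respiratory factor NRF1 (GCATGCGC) on both strands. The stretch of Ndufb10 held none of the motifs searched. In GRCm38, Cox6b1 (ENSMUSG00000036751) lies on chr7 from 30616861 to 30626151, Ndufb10 (ENSMUSG00000040048) on chr17 from 24722060 to 24724478, and Ndufa11 (ENSMUSG00000002379) on chr17 from 56717767 to 56722141.

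In windows of 300 bases, 250 before the start and 50 after it, 65 of the 80 members had an entry. The NRF1 core (GCATGCGC) was found in 10 of 65 windows (15.4%) against 2.71% of all 32851 windows. The core bound by ETS factors such as GABP (CCGGAAG) was found in 15 (23.1%, against 8.86%), and that of YY1 (AAGATGGC) in 9 (13.8%, against 2.75%). The single site of the estrogen-related receptors (AAGGTCA) was found in 8 (12.3%, against 4.72%) and the CCAAT box (CCAAT) in 28 (43.1%, against 37.4%). The core of the Tcf/Lef site (CTTTGA) was found in 7 (10.8%, against 16%), among them the window of Cox6b2, outside the stretch printed above. Both strands were searched, and a match is a description of the letters only.

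Per kilobase of exon, wild-type levels of the members spanned more than 2 orders of magnitude, as the plot of levels by complex shows. In complex I the mean normalized count per kilobase was highest for Ndufa2 (4399) and lowest for Ndufb2 (77.5), with a median of 1688. In complex II it ran from 1080 (the membrane anchor gene Sdhc) to 3682 (the other anchor gene, Sdhd). In complex III it ran from 1346 (Cyc1, which encodes cytochrome c1) to 6371 (Uqcr10). In complex IV the highest was Cox6a1 (9418) and the lowest Ndufa4l2 (22.6), and in complex V the highest was Atp5a1 (6421), the catalytic-head subunit alpha, and the lowest Atp5s (113.1). The exons of 28 members overlap those of another gene, among them Ndufb2, Ndufa11, Ndufa3, Ndufb11 and Cox5a, and as the cDNA kit does not mark the strand, reads on such stretches cannot be assigned to 1 gene.

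**Figure D1:**
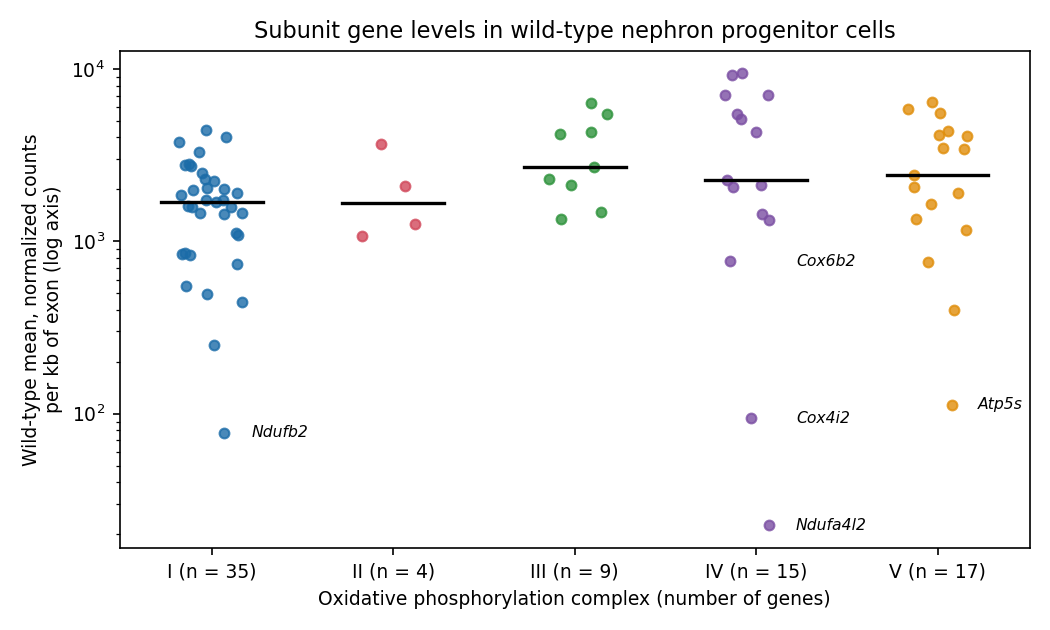
Wild-type mean level of each of the 80 subunit genes, in normalized counts per kilobase of exon on a log axis, by complex. Points are genes and black lines are the medians of a complex, which lie between 1672 and 2689, while Ndufb2, Cox4i2, Ndufa4l2, Atp5s and Cox6b2 are named because they lie low.

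The members together took 1.23% to 1.99% of the normalized counts of a library, and the 13 subunit genes of mitochondrial DNA took 0.49% to 2.83%. One library stood apart. In no Cre, low CHIR, replicate 1, the members took 1.99% and their mean was 0.50 above the mean of the table on the log2 scale, with every complex raised (0.32 for complex II to 0.59 for complex IV), while the mitochondrially encoded genes were at 0.49% and 1.01 below it. The other 35 libraries lay between -0.20 and 0.24 for the members. The SD between replicates of that mean was 0.10 in the wild-type table, 0.09 in the Tcf/Lef table and 0.16 in the β-catenin table, or 0.11 there over the 7 groups that do not hold the library that stood apart. For comparisons that use it, values without it are given as well. Such a fit leaves 1 library in that group, which is assumed to vary like the other groups.

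**Figure D2:**
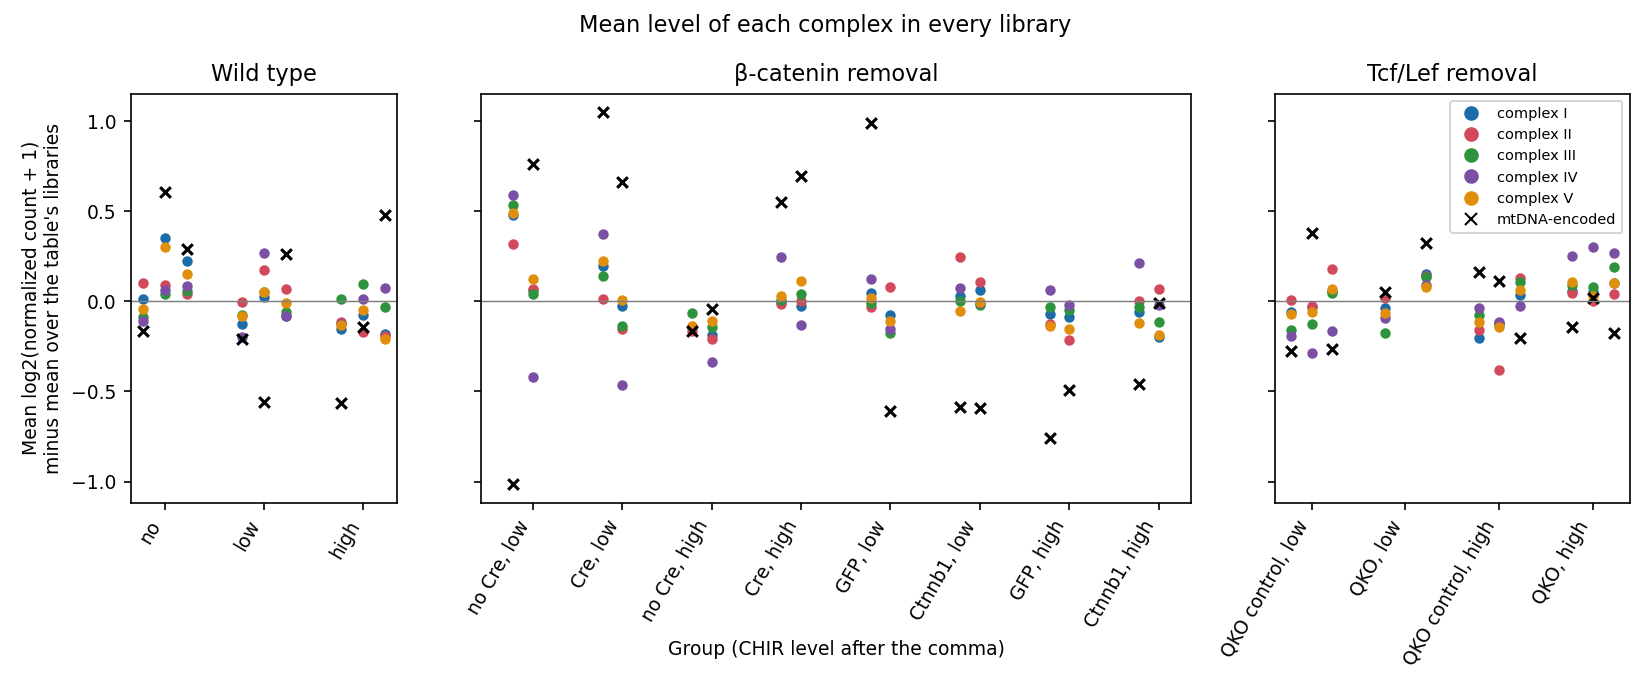
Mean log2(normalized count + 1) of the members of each complex (colored dots) and of the 13 mitochondrially encoded subunit genes (crosses) in each library, minus the mean over the libraries of the same table, by group, where GFP and Ctnnb1 stand for the Cas9 sgRNA groups. The first no Cre library in low CHIR has all 5 complexes between 0.32 and 0.59 and the mitochondrially encoded genes at -1.01.

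To see how the dose of CHIR bears on these genes, high and no CHIR were compared with low CHIR in wild-type NPCs. In high CHIR 2 of 80 members fell and none rose: Cox6b2, a complex IV subunit gene whose product is best known from testis, and Ndufb10, an accessory subunit gene of complex I. Over all 17411 genes tested, 5.18% fell and 5.39% rose. With limma 8 members (10%, against 24.8% of all genes) had an unadjusted p under 0.05, and DESeq2 called 6 lower and 1 higher, Cox5a, at an adjusted p of 0.0419. The count of falls was 4, with 1 rise, without high CHIR replicate 3, 1 without high CHIR replicate 2 or low CHIR replicate 1, and 0 without low CHIR replicate 2 or 3. Of 7 NPC markers 6 fell in this comparison, and their sum was 14690 to 19830 in low and 3516 to 7204 in high CHIR. Blood markers summed to 642.6 to 798.8 and 186 to 280.6, while the sums of stromal (10450 to 16950 and 4115 to 12670) and endothelial markers (50.3 to 175.6 and 79.5 to 795.5) overlapped. Of the 4 endothelial markers tested Tek rose (6.95) and Emcn fell (-2.77). Of the 6 stromal markers tested Foxd1 fell (-1.95). Of the 4 ureteric markers tested Gata3 (5.39) and Krt18 (1.95) rose. The ureteric sums were 347.5 to 710.9 in low and 2360 to 5915 in high CHIR. The part of cell types in these values was not tested. The median log2 difference of the members was -0.06 (0.01 over all genes), with 31 above 0, and by complex it was -0.08 in I, -0.23 in II, 0.00 in III, 0.02 in IV and -0.07 in V.

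Cox6b2 stood at 887, 788 and 806 normalized counts in low CHIR and at 565, 436 and 559 in high CHIR. The groups did not overlap, and the log2 difference was -0.68 (SE 0.17), a ratio of 0.625, with an adjusted p of 0.0293. Over the alternatives that adjusted p ran from 0.00533 to 0.103, and it missed the threshold without any 1 of the 3 low CHIR libraries or without high CHIR replicate 2. Ndufb10 stood at 2047, 2224 and 2190 in low CHIR and at 1525, 1467 and 1449 in high CHIR. These groups were likewise apart, with a log2 difference of -0.54 (SE 0.12, adjusted p = 0.0148), which missed the threshold without low CHIR replicate 2 (0.052) or 3 (0.071). Sdha, the flavoprotein of complex II that oxidizes succinate, stood at 5570, 6293 and 5909 in low CHIR and 4610, 3709 and 4382 in high CHIR. It did not pass the test (log2 difference -0.49, SE 0.14, adjusted p = 0.052), nor did the anchor gene Sdhc (-0.40, SE 0.11, adjusted p = 0.0521), although their groups were apart.

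Without CHIR, 1 member rose and none fell, against 2.39% higher and 2.65% lower over all genes. It was Ndufa11, a membrane-arm subunit gene of complex I. Its counts were 1993, 2267 and 2120 with no CHIR and 1445, 1513 and 1388 in low CHIR. All libraries with no CHIR lay above those in low CHIR, with a log2 difference of 0.55 (SE 0.12, adjusted p = 0.0329). That p ran from 0.00081 to 0.143 over the alternatives and missed the threshold without any of the libraries but no CHIR replicate 1. The members as a list lay above 0: 68 of 80, with a median of 0.19 (0.01 over all genes), and 18 (22.5%) had an unadjusted p under 0.05, near the 22.3% of all genes. Complex I had 33 of 35 genes above 0 and a median of 0.25. The medians were -0.01 in complex II, 0.15 in III, 0.15 in IV and 0.17 in V. Marker sums moved as well. NPC markers summed to 26570 to 31090 with no CHIR, above low CHIR, with 2 of 7 called higher (Cited1 and Osr1), endothelial markers to 213.7 to 364.8 and blood markers to 867.9 to 1192, both also above low CHIR. Stromal and ureteric sums overlapped with low CHIR. Their part was not tested.

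The count of members called differed with 1 library. No CHIR replicate 1, the deepest at 76.1 M reads, had complex I at 0.01 against the mean of the table, while replicates 2 and 3 had it at 0.35 and 0.23. Without replicate 1, 10 members rose (DESeq2 gave 7 with all libraries), the median was 0.31 and Uqcrfs1 fell. Without any other library none was called by limma. Uqcrfs1, a gene picked after its values were seen, the Rieske iron-sulfur subunit gene of complex III, stood at 3320, 1553 and 2840 with no CHIR and 4014, 4585 and 3847 in low CHIR. All 3 values lay below those in low CHIR with all libraries too, where the log2 difference was -0.76 (SE 0.24, adjusted p = 0.101). The 13 mitochondrially encoded genes, none of which was called, had log2 differences above 0 in 13 of 13 cases with a median of 0.34. Across the doses Cox6b2 had 969, 1257 and 1352 counts with no CHIR, above all low CHIR libraries (log2 difference 0.51, SE 0.17), without passing the test by limma (adjusted p = 0.11); DESeq2 gave 0.0478.

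**Figure D3:**
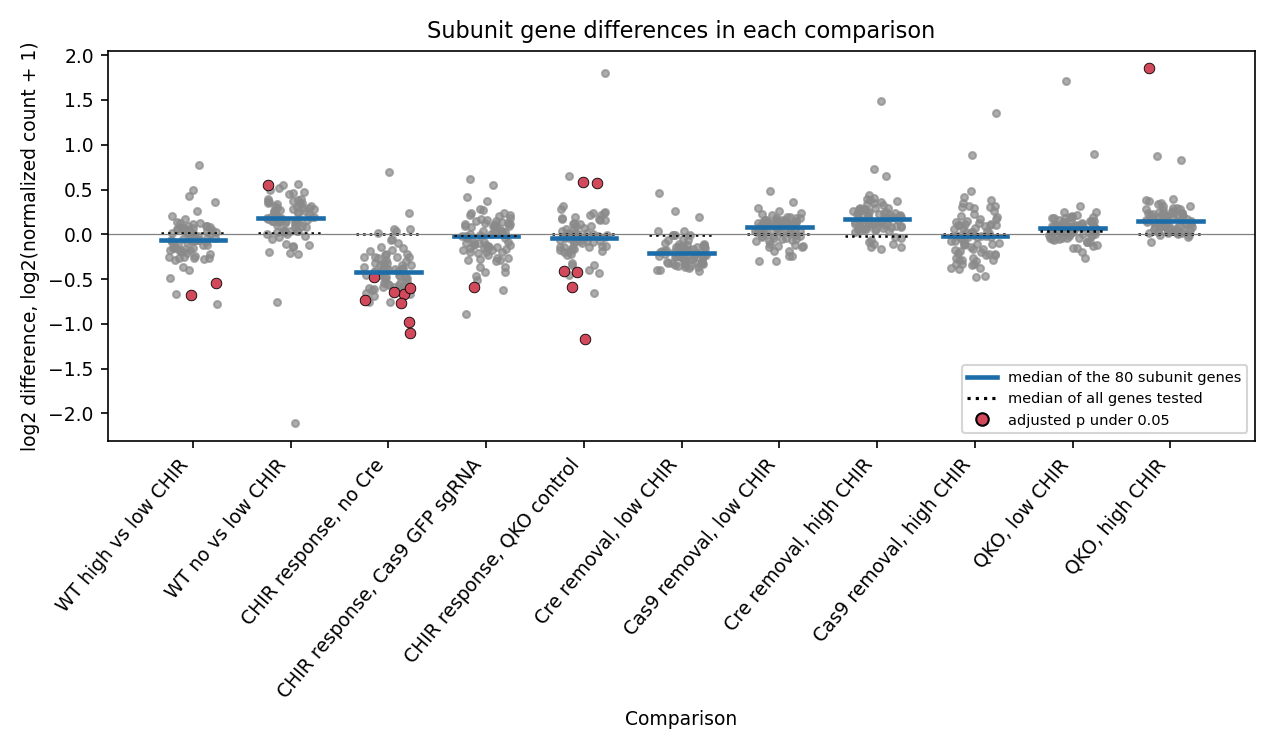
The log2 difference of each of the 80 subunit genes in 11 comparisons, with genes called at an adjusted p under 0.05 in red, the median of the 80 as a blue line and the median of all genes tested as a dotted line. The blue line lies farthest from the dotted one for the CHIR response without Cre (-0.42), and the red point at the top for QKO in high CHIR is Cox6b2 (1.85).

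The response to high against low CHIR was then read in the control cells of the other tables. In Cas9-eGFP controls with GFP sgRNA, 1 of 80 members fell and none rose (4.53% and 2.98% over all genes), with a median of -0.02. The gene was Sdha, with 9020 and 9738 counts in low and 6402 and 6062 in high CHIR. These did not overlap (log2 difference -0.59, SE 0.16, adjusted p = 0.0376). EdgeR and DESeq2 did not call it, but they ran without low CHIR replicate 1, which left 1 low CHIR library. Limma did not call it without any 1 of these 4 libraries, a fit that also leaves 1 library in a group. In the QKO controls 2 members rose and 4 fell, against 7.36% and 8.26% over all genes, with a median of -0.04. With replicate numbers as a block, since the Tcf/Lef libraries are paired by number, 3 rose and 11 fell, against 11.7% and 12.8% of all genes with the block. The genes then added lower were Atp5s, Sdha, Ndufv3, Ndufa11, Cox7a2l, Atp5g1 and Ndufa8, and Ndufa4l2 was added higher. Left out 1 at a time without a block, high CHIR replicate 3 gave 11 falls, low CHIR replicate 3 gave 5, low CHIR replicate 2 and high CHIR replicate 1 gave 2, and low CHIR replicate 1 and high CHIR replicate 2 gave 1. In the last pair of fits none rose, and without low CHIR replicate 2, 1 rose. The mean of high CHIR replicate 3 over the members was 0.04 above the table, against -0.14 for both other replicates.

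In the QKO controls Cox6b2 stood at 528, 455 and 609 in low CHIR and 249, 171 and 298 in high CHIR. Every high CHIR library lay below every low CHIR library, and the fall was 1.17 on the log2 scale (-1.17, SE 0.20, adjusted p = 0.00208), called under each of the alternatives run. Ndufb10 fell from 1925, 1612 and 1590 to 1132, 984 and 1301 (-0.59, SE 0.14, adjusted p = 0.0165), again with no overlap. The other falls were in Ndufb11, a membrane-arm subunit gene of complex I (-0.41, adjusted p = 0.0294), and Sdhc (-0.42, adjusted p = 0.0459). Among the rises, the complex I accessory subunit gene Ndufa12 went from 1739, 1876 and 2076 to 2379, 3137 and 3042 (0.58, SE 0.13, adjusted p = 0.0119). Cox5a, a matrix-side subunit gene of complex IV, went from 1056, 1068 and 1180 to 1586, 1619 and 1702 (0.57, SE 0.15, adjusted p = 0.024), and neither pair of groups overlapped. EdgeR, run without high CHIR replicate 2, called neither, and each missed the threshold without some of the libraries. In wild-type NPCs Cox5a had 2664, 2447 and 2419 in low and 3200, 4126 and 2933 in high CHIR, and did not pass the test there by limma (0.43, adjusted p = 0.0797).

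Without Cre, in β-catenin c/c cells, 8 of 80 members fell in high CHIR and none rose, against 5.25% and 2.81% over all genes. They were 5 genes of complex I (Ndufa11, Ndufa3, Ndufa2, Ndufs8 and Ndufa8) and 1 each of III (Uqcr11), IV (Cox6b2) and V (Atp5h). The differences ran from -1.10 for Cox6b2 to -0.48 for Ndufa8, and 74 of 80 members lay below 0 with a median of -0.42 (0.00 over all genes). Uqcr11, a small subunit gene of complex III, stood at 5892 and 3911 in low CHIR and 1942 and 3035 in high CHIR (-0.98, SE 0.23, adjusted p = 0.0172), and Ndufa11 at 2147 and 1519 against 1112 and 1016 (-0.76, SE 0.18, adjusted p = 0.0157). The higher low CHIR value in each case was that of replicate 1, the library that stood apart. Without it none of the 80 was called (limma) and the median was -0.22, and without no Cre, low CHIR, replicate 2, which leaves the library that stood apart alone in its group, the count was 30. Without no Cre, high CHIR, replicate 1 it was 0, and without replicate 2 of that group 3. Each of these fits leaves 1 library in a group and takes the spread from the other groups.

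Cox6b2 had 1527 and 912 counts without Cre in low CHIR and 569 and 532 in high CHIR (-1.10, SE 0.29, adjusted p = 0.0349). That p was 0.281 without the library that stood apart, 0.12 and 0.143 without the first or second high CHIR library. In the GFP sgRNA controls it had 1423 and 1655 against 700 and 974, groups that did not overlap (-0.89, SE 0.29) without passing the test (adjusted p = 0.0906). No Wnt pathway gene was targeted in 4 sets of NPCs. In each of them all high CHIR libraries lay below all low CHIR libraries for Cox6b2. The test was passed in 3, and in 1 of these, no Cre, this depended on the library that stood apart. Cox6b2 is named because it was called, and the share of all genes that lie apart in all 4 sets was not counted. The plot of Cox6b2 by library shows its counts.

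**Figure D4:**
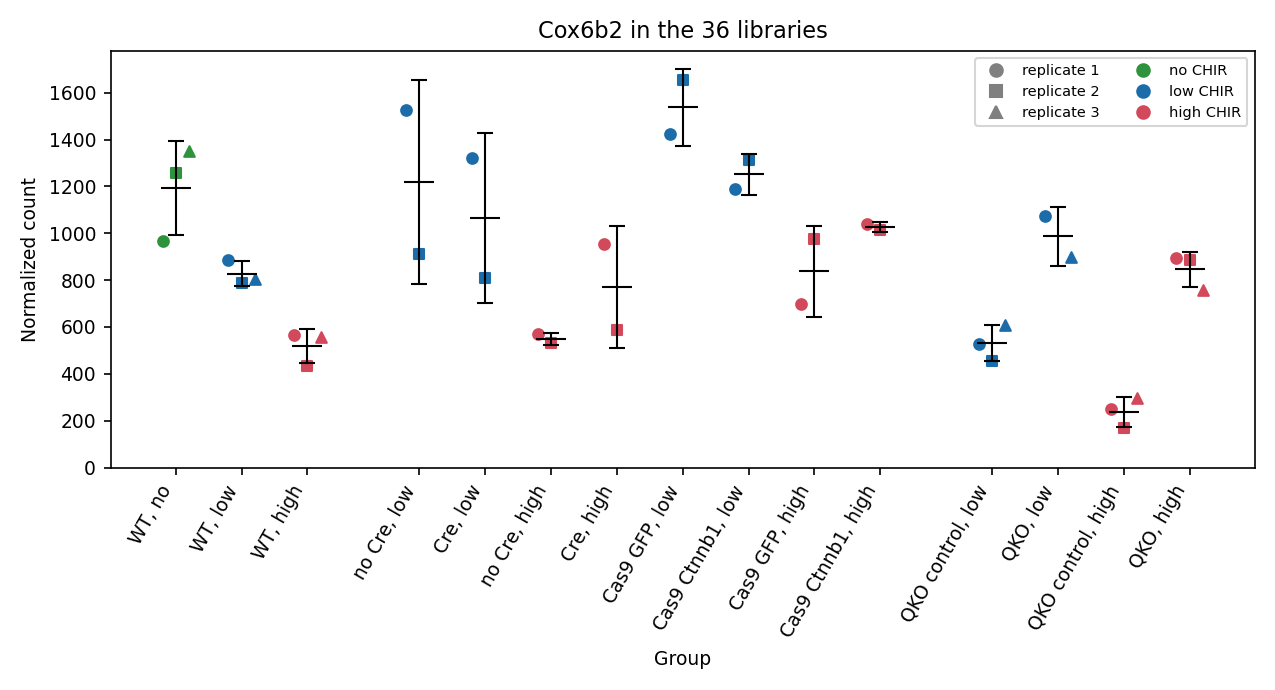
Normalized count of Cox6b2 in each of the 36 libraries by group, with the replicate as the symbol, the CHIR level as the color, and the mean and SD of the group as a black line and bar. In the QKO groups in high CHIR the 3 QKO libraries lie at 760 to 894 and the 3 controls at 171 to 298.

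Removal of β-catenin or of the Tcf/Lef factors was compared with the matched controls at the same CHIR level to ask which of these genes depend on them. In high CHIR 1 of 80 members rose in QKO cells, against 2.07% higher and 0.491% lower over all genes, and it was Cox6b2. It stood at 894, 885 and 760 in QKO and 249, 171 and 298 in the controls. No value overlapped, and the log2 difference was 1.85 (SE 0.20), a ratio of 3.61, with an adjusted p of 0.000885. Each of the alternatives called it, with log2 differences from 1.63 to 2.03. Of 7 NPC markers 4 rose as well. They were Six2 (665, 607 and 685 in QKO, 246, 137 and 271 in the controls), Cited1 (ratio 3.33), Osr1 (4.53) and Meox1 (3.34), while the sum of all 7 was 9406 to 10850 and 9718 to 10690. Ureteric markers summed to 154.3 to 264.9 in QKO and 277.5 to 710.9 in the controls, endothelial markers to 62.7 to 110.1 and 113.7 to 216.4, neither overlapping, stromal markers to 684.6 to 8401 and 310.5 to 3634, and blood markers to 9.56 to 20.8 and 0 to 2648. The highest blood value is that of QKO control replicate 1, without which Cox6b2 was called as well. The part of these cell types was not tested. The median of all members was 0.15 (0.00 over all genes), with 76 of 80 above 0, among them 15 of 15 of complex IV and 17 of 17 of complex V. With the replicate block 3 rose, against 5.61% higher and 2.37% lower of all genes with the block, the other two being Uqcr10 (0.35, adjusted p = 0.049) and Atp5g1, 1 of the 3 genes for the membrane ring subunit c of ATP synthase (0.39, adjusted p = 0.0396). Ndufb10 had 1486, 1340 and 1600 in QKO, all above its controls (0.38, SE 0.14), and did not pass the test (adjusted p = 0.243).

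In low CHIR limma called none of 80 members between QKO and control, and 1 gene in all (0.00630% higher and 0% lower). For 2 members the unadjusted p was under 0.05, for 3 by edgeR and 2 by DESeq2. Cox6b2 had 1076 and 897 counts in QKO against 528, 455 and 609, again apart. Its log2 difference was 0.90 (SE 0.23) with an adjusted p of 0.89, and DESeq2, which called that 1 member, gave 0.00247. The rise in high CHIR was larger by 0.96 (SE 0.30), an interaction that did not pass the test (adjusted p = 0.507, and 0.133 with the replicate block). The interaction called 0.107% of all genes higher and 0.0189% lower, none of the 80 among them, and 1 member had an unadjusted p under 0.05, likewise by edgeR and DESeq2.

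With Cre in high CHIR limma called none of the 80, against 5.90% higher and 2.75% lower over all genes. EdgeR and DESeq2 ran there without Cre replicate 1, which left 1 Cre library, so their calls are not set beside these. By limma 2 members (2.5%, against 20.8% of all genes) had an unadjusted p under 0.05. The median was 0.17 (-0.01 over all genes), with 71 of 80 above 0 and 17 of 17 in complex V. Endothelial markers summed to 561 and 924.9 with Cre and 59.1 and 63.5 without, and of 7 NPC markers Six2, Cited1, Osr1 and Meox1 rose and Sall1 fell. Of 5 endothelial markers only Emcn was tested in this table, and it rose (4.09). These sums do not show whether other endothelial genes moved. The sums of the NPC (11850 and 12760 against 8848 and 10930), stromal (6980 and 12300 against 4558 and 5595) and blood markers (6.07 and 22.2 against 1.04 and 4.6) were also higher with Cre, and that of the ureteric markers lower (192.8 and 218.6 against 224.6 and 388). Their part was not tested. Cox6b2 had 955 and 586 counts with Cre and 569 and 532 without, narrowly apart, with a log2 difference of 0.44 (SE 0.29, adjusted p = 0.439). With Ctnnb1 sgRNAs in high CHIR none was called by any of the 3 tools (3.44% higher and 1.64% lower over all genes), and 4 (5%, against 19.4% of all genes) had an unadjusted p under 0.05 (1 by edgeR, 2 by DESeq2). Endothelial markers summed to 626.7 and 1055 against 71.8 and 158.1 there, with Emcn, the only one tested, higher (3.27). Of 7 NPC markers Cited1, Osr1 and Meox1 rose and Sall1 fell. The median was -0.02, and Cox6b2 had 1042 and 1012 counts against 700 and 974 (0.31, SE 0.29, adjusted p = 0.61). Sdha had 7898 and 9666 with Ctnnb1 sgRNAs against 6402 and 6062 with GFP sgRNA, apart but not past the test (0.49, SE 0.16, adjusted p = 0.0972).

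In low CHIR removal of β-catenin called few genes at all. With Cre 0.179% of genes rose and 0.149% fell, and with Ctnnb1 sgRNAs 0.0358% and 0.0179%, none of the 80 among them by limma. EdgeR and DESeq2 called none of the 80 with Cre. For Ctnnb1 sgRNAs they ran without GFP sgRNA replicate 1, which left 1 control library. With Cre 1 member had an unadjusted p under 0.05 by each of the 3 tools, and with Ctnnb1 sgRNAs 0 by limma. The median with Cre was -0.21 with 75 of 80 below 0, but without no Cre, low CHIR, replicate 1 it was 0.02. Endothelial markers summed to 772.5 and 1197 with Cre and 163.9 and 178.8 without. With Ctnnb1 sgRNAs the median was 0.08, with 56 of 80 above 0, and the endothelial sums were 518.9 and 736.9 against 100.6 and 155. Emcn, the only endothelial marker tested, rose in low CHIR with Cre (2.58) and with Ctnnb1 sgRNAs (2.54). The difference in the response to CHIR between Cre and no Cre had a median of 0.36 over the members with 77 of 80 above 0, and of 0.18 without that library. None of the 80 was called in it by limma (0.745% higher and 0.250% lower over all genes), and 6 had an unadjusted p under 0.05. For Ctnnb1 sgRNAs the median of the interaction was -0.09. None was called there by limma (0.471% and 0.0477% over all genes) and none had an unadjusted p under 0.05. EdgeR and DESeq2 had 1 library in a group of both interactions.

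The level of Cox6b2 was also set against that of its constitutive partner Cox6b1. Per kilobase, Cox6b2 made up 12.4% ± 0.929 (SD, n = 3) of Cox6b1 plus Cox6b2 in wild-type NPCs with no CHIR, 10.1% ± 0.693 in low CHIR and 6.38% ± 1.2 in high CHIR. In the Tcf/Lef table it made up 9.66% ± 0.669 in low CHIR controls (n = 3) and 17.0% ± 3.61 in QKO (n = 2). In high CHIR the share was 4.54% ± 1.04 in the controls and 13.7% ± 1.14 in QKO (n = 3 each). No library of QKO in high CHIR overlapped with its controls. Cox6b1 itself had 2934, 3160 and 3501 counts in those controls and 3338, 3469 and 3432 in QKO (log2 difference 0.10, SE 0.12, adjusted p = 0.759). It was called in no comparison by limma with all libraries and no block. In high CHIR without Cre, where that fit gave -0.59 (adjusted p = 0.0733), it was called lower by DESeq2 (adjusted p = 0.0404), by limma with the replicate block (0.0403) and by limma without no Cre, low CHIR, replicate 2 (0.0115). Without the library that stood apart it was at -0.31 (adjusted p = 0.425). The exons of Cox6b2 (ENSMUSG00000051811, chr7, 4751792 to 4753094, minus strand) overlap no other annotated gene, and its neighbor Kmt5c was not called in any comparison. Another neighbor, Fam71e2, named after its values were seen, had 0 to 6.38 counts in the Tcf/Lef table.

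Ndufa4l2 and Cox4i2, isoform genes known from low oxygen, varied widely between libraries of 1 group. Ndufa4l2 had 0 to 143 counts in wild-type NPCs, 0.865 to 36.4 in the Tcf/Lef table and 16.7 to 1722 in the β-catenin table. In that table replicate 1 lay above replicate 2 in each of the 8 groups, for example at 615 and 22 without Cre in low CHIR, and the same held for Cox4i2 (388 and 30.2 there). Neither gene was called in any comparison by limma with all libraries and no block. These genes are 2 of the 15 of complex IV and have large swings on the log scale, so they weigh on the mean of complex IV by library. Cox6a2, the muscle isoform gene, which is no member since it has no row in the wild-type table, reached 250, 208, 119 and 111 counts in the first replicates of the high CHIR groups of the β-catenin table, against 0 to 58.4 in the second replicates. In the Tcf/Lef table it had 1.16 to 10.4.

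**Figure D5:**
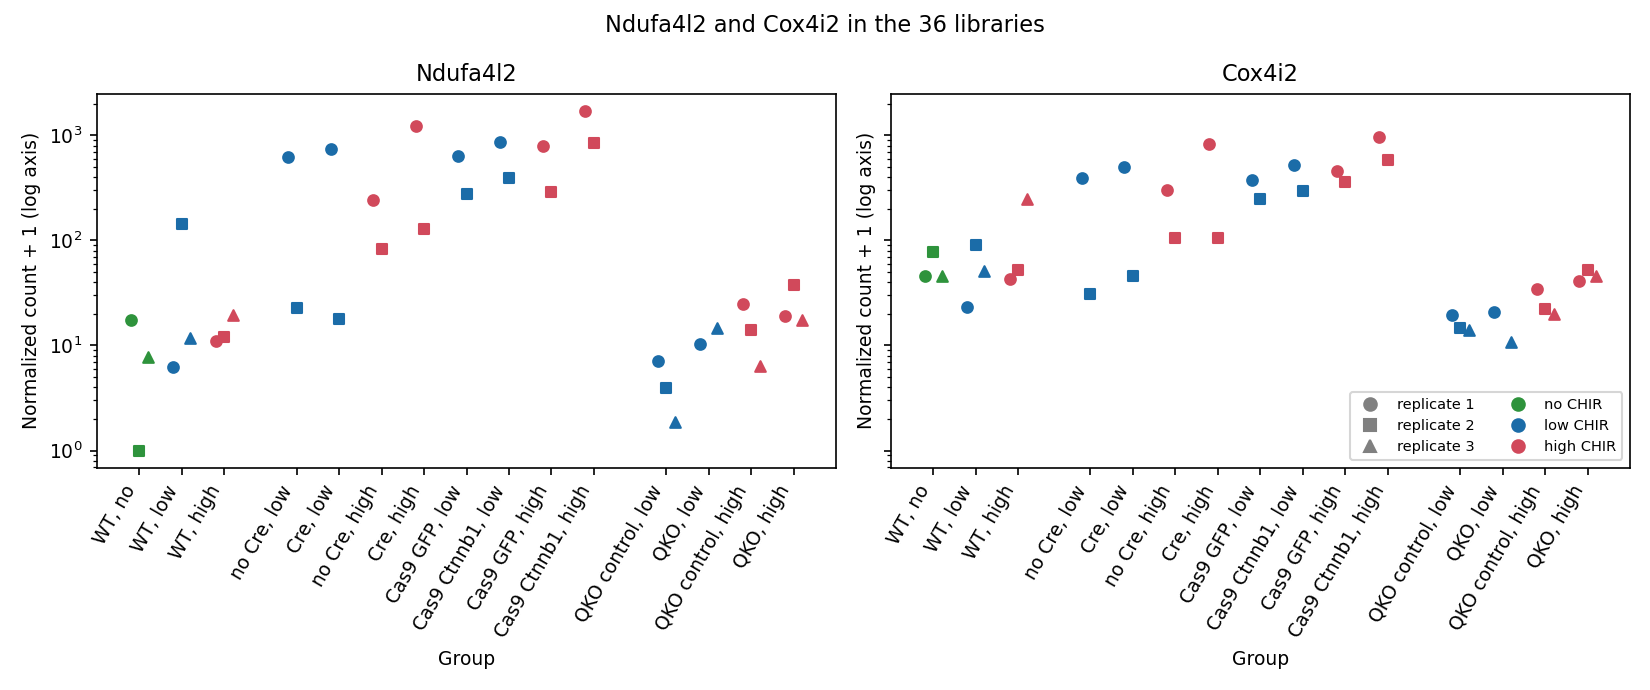
Normalized count plus 1, on a log axis, of Ndufa4l2 (left) and Cox4i2 (right) in each library by group, with the replicate as the symbol and the CHIR level as the color. In the 8 groups of the β-catenin table the circle (replicate 1) lies above the square (replicate 2) for both genes.

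Per kilobase of exon and by group means, the 3 genes for subunit c were shared out in the same order at each dose, though not in every high CHIR library. The order rests on the exon lengths used, 4912 bases for Atp5g1, 1675 for Atp5g2 and 2181 for Atp5g3. In wild-type mean counts, not divided by length, Atp5g3 (7597) lay above Atp5g2 (7269), with Atp5g1 at 3739. The shares that follow are per kilobase. In wild-type NPCs Atp5g2 made up 50.2% ± 2.26 with no CHIR, 53.2% ± 1.6 in low and 48.3% ± 3.48 in high CHIR (SD, n = 3), Atp5g3 40.8% ± 2.51, 37.9% ± 1.01 and 42.9% ± 4.32, and Atp5g1 8.96% ± 0.442, 8.89% ± 0.795 and 8.80% ± 0.996. The groups overlapped for Atp5g1. For Atp5g2 low CHIR (51.6% to 54.8%) lay just above high CHIR (44.6% to 51.5%), and the reverse held for Atp5g3 (36.7% to 38.5% and 39.4% to 47.7%). No test was run on these shares. Cox7a1 made up 0.132% to 0.329% (group means) of Cox7a1, Cox7a2 and Cox7a2l in wild-type NPCs.

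Other genes of the pathway were read as lists beside the subunits. Of the mitochondrially encoded subunit genes none of 13 was called in any comparison by limma. Their median log2 difference was 1.00 with Cre in low CHIR and 0.09 without no Cre, low CHIR, replicate 1. With Ctnnb1 sgRNAs in low CHIR it was -0.79, and 0.04 without GFP sgRNA, low CHIR, replicate 1, a library with these genes 0.99 above the mean of the table against -0.61 in replicate 2. For high against low CHIR with GFP sgRNA it was -0.79, and 0.09 without that library. Of 44 assembly factor genes 1 fell in wild-type NPCs in high CHIR, 2 without Cre, 1 with GFP sgRNA and 2 of 43 in the QKO controls, and none rose there. Over all genes 5.18%, 5.25%, 4.53% and 8.26% fell in these comparisons. In wild-type NPCs with no CHIR 1 of the 44 rose and 1 fell, against 2.39% and 2.65% over all genes. The fall was that of Ndufaf6 (-1.775, adjusted p = 0.0128). Cox14, needed to build complex IV, had 2679, 2792 and 2784 counts in low and 1700, 1643 and 1566 in high CHIR in wild-type NPCs. No libraries overlapped, and it fell there by 0.75 (adjusted p = 0.00362), without Cre by 0.74 (adjusted p = 0.02; -0.50 and 0.18 without the library that stood apart) and in the QKO controls by 0.74 (adjusted p = 0.00442). Uqcc2, an assembly factor gene of complex III, fell without Cre (-1.01, adjusted p = 0.00528, but 0.0603 without that library) and with GFP sgRNA (-0.82, adjusted p = 0.0215, but 0.201 without low CHIR replicate 1), and rose in wild-type NPCs with no CHIR (0.55, adjusted p = 0.0498).

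Of 12 electron carrier genes, 2 fell in wild-type NPCs in high CHIR, 1 without Cre, 1 with GFP sgRNA and 2 in the QKO controls. The shares of all genes that fell were 5.18%, 5.25%, 4.53% and 8.26%. Coq8a, needed for coenzyme Q synthesis, had 85.4, 106 and 87.4 counts in low CHIR and 12.3, 4.19 and 57.0 in high CHIR in wild-type NPCs (-2.56, adjusted p = 0.0394). It fell with GFP sgRNA (-1.82, adjusted p = 0.0189, but 0.0865 without low CHIR replicate 1) and in the QKO controls (-2.84, adjusted p = 0.000286). Cycs, which encodes cytochrome c, was not called in any comparison. Of 13 citric acid cycle genes 1 was called, as lower, in each of the 4 CHIR comparisons of high against low, against the same shares of all genes. It was Suclg2, a subunit gene of the GTP-forming succinyl-CoA ligase, at 3138, 3733 and 3987 counts in low and 1245, 1281 and 1578 in high CHIR in wild-type NPCs (-1.40, adjusted p = 0.000225). On the log2 scale it fell by 1.0 without Cre (adjusted p = 0.00221, and 0.0222 without the library that stood apart), by 0.78 with GFP sgRNA (adjusted p = 0.0124) and by 1.33 in the QKO controls (adjusted p = 5.03e-05). In high CHIR it rose with Cre (0.66, adjusted p = 0.0277) and in QKO (0.65, adjusted p = 0.0263), with no overlap between groups.

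Of 19 genes for regulators of mitochondrial biogenesis, Mycn and Ppargc1a moved most. Mycn, a transcription factor gene of the Myc family, had 565, 656 and 544 counts with no CHIR, 2137, 2127 and 1940 in low and 398, 412 and 754 in high CHIR. In wild-type NPCs it fell on both sides of low CHIR (-1.81 with no and -2.05 with high CHIR, adjusted p = 0.00362 and 0.000378). For high against low CHIR it was at 0.02 without Cre and 0.705 with GFP sgRNA. It was not called in those controls or in the QKO controls. With Ctnnb1 sgRNAs in high CHIR it fell (-1.15, adjusted p = 0.0417). It also fell with Cre in low and high CHIR (-2.05 each, adjusted p = 0.00741 and 0.000636). In low CHIR this was -1.75 (adjusted p = 0.137) without no Cre replicate 1. Ppargc1a, which encodes the coactivator PGC-1α, rose in high CHIR with Cre (2.63, adjusted p = 0.00268) and with Ctnnb1 sgRNAs (3.14, adjusted p = 0.00146), where it stood at 638 and 234 against 57.1 and 66.4, and at 460 and 340 against 65.2 and 29.7. It rose with CHIR in the QKO controls as well (2.73, adjusted p = 0.0011). In wild-type NPCs it had 57.8, 57.9 and 47.9 counts in low CHIR and 1594, 2147 and 66.4 in high CHIR, where replicate 3 stood apart from the other two, and did not pass the test (3.47, adjusted p = 0.0569). Ppargc1b fell in the QKO controls (-1.09, adjusted p = 0.0122). Nrf1, Gabpa, Esrra and Tfam, whose products are known to act on nuclear subunit genes or on mitochondrial DNA, were not called in any comparison. Gabpb1, which encodes the partner of Gabpa, rose in high CHIR with GFP sgRNA (0.62, adjusted p = 0.033) and fell in high CHIR with Cre (-0.65, adjusted p = 0.024) and with Ctnnb1 sgRNAs (-0.62, adjusted p = 0.0428). Polg, the mitochondrial DNA polymerase gene, rose in wild-type NPCs in high CHIR (1.42, adjusted p = 0.00248), and Esrrg in the QKO controls (1.2, adjusted p = 0.0376). Myc rose in no CHIR (1.05) and in high CHIR with Cre (1.43) and Ctnnb1 sgRNAs (1.28), and fell in high CHIR without Cre (-1.26, adjusted p = 0.0181, but 0.107 without the library that stood apart).

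Of 77 mitochondrial ribosome genes 4 fell without Cre, near the 5.25% of all genes, and none did without the library that stood apart. In other comparisons 1 fell in wild-type NPCs with no CHIR (Mrps24, -1.02, adjusted p = 0.0221), and Mrpl37 rose with GFP sgRNA (0.66, adjusted p = 0.0242) and in the QKO controls (1.33, adjusted p = 0.000189). The median of the list with Cre in low CHIR was -0.35, and -0.16 without the library that stood apart. Of 22 protein import genes 3 fell without Cre (0 without that library), and Tomm34 rose in wild-type NPCs in high CHIR (0.53, adjusted p = 0.0301) and in the QKO controls (0.79, adjusted p = 0.00239). Tomm40 fell in wild-type NPCs with no CHIR (-1.568, adjusted p = 0.0229), and Timm21 fell with Ctnnb1 sgRNAs in high CHIR (-0.598, adjusted p = 0.0475). In all comparisons a lower count can reflect fewer cells of a type or less RNA per cell, which cannot be told apart in these bulk libraries.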

How the data were processed

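RNA from 36 samples of primary mouse NPCs was sequenced by the authors as SMARTer cDNA with paired reads of 150 bases, aligned with STAR and assigned to genes by featureCounts. Each of the 3 deposited tables holds signal in the form of normalized counts, reads that the authors divided by 1 DESeq2 size factor per library. The deposited comparison tables hold the authors' fold changes and p-values and were not used. Values of different tables were normalized separately and were tested only within a table.

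Whole reads were recovered from the step between values in 33 libraries, where 100% of nonzero values lay within 0.05 reads of a whole number. In the other 3 (Cas9 GFP sgRNA low CHIR replicate 1, Cre high CHIR replicate 1 and QKO control high CHIR replicate 2) 1 read was worth close to 1 count, and they were left out of the edgeR 4.0.16 and DESeq2 1.42.0 alternatives. Both tools thus had 1 library left of Cas9 GFP sgRNA in low CHIR and of Cre in high CHIR. Between the high and low doses in wild-type cells, edgeR called 937 genes higher and 819 lower, and DESeq2 1480 and 1274, against 939 and 902 by limma. Depth is the recovered reads on genes.

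log2(normalized count + 1) was fitted with limma 3.58.1 (R 4.3.3, variance trend) to every library of its table, keeping genes that averaged 10 counts or more. Differences are on that scale, which understates those of low genes. Benjamini-Hochberg adjustment ran across every gene tested (17411, 16780 and 15878), and called means an adjusted p under 0.05, with no fold limit. There were 14 comparisons, and those within a table that share libraries are not independent of each other. The steps were tested on simulated data. In the Tcf/Lef table the headers of the comparison tables give a date that libraries of the same number share, and deviations of same-numbered libraries from their group means correlated at 0.249 to 0.63, so results of a fit blocked on replicate accompany those without it where calls change. Places are from the GENCODE annotation of GRCm38, and levels per kilobase divide by the union of exons. Gene identifiers of 25723 of 25760 rows in the wild-type table had a symbol.

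The members follow from symbols, and both the lists and the naming rule were chosen with earlier results of these data known. Named are, per comparison, up to 4 called members that rose and 4 that fell most, the highest and lowest member of each complex per kilobase, the isoform sets, Cycs and the main regulators, and per other list up to 2 called genes. Uqcrfs1, Kmt5c, Fam71e2, the fifth to eighth falls without Cre, the members added by the block and the values given for a called member in other comparisons were picked after values were seen. Promoters are from RefSeq (63 members matched by symbol, 2 by an older symbol, 15 without an entry). Figures were drawn with matplotlib 3.10.9 (Python 3.11.15).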

Additional observations from a re-analysis of the deposited data

Results flagged for a closer look

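For 3 genes every library of the knockout group lay on one side of its controls in low CHIR and on the other side in high CHIR. The share of all genes that do so was not counted, so nothing is concluded from this number. Atp5g1 with Cre had a log2 difference of -0.404 in low and 0.367 in high CHIR. Without Cre it stood at 7295 and 4867 in low and 4050 and 3472 in high CHIR, and with Cre at 4771 and 4247 in low and 4644 and 5034 in high. The difference between both effects was 0.77 (SE 0.29, adjusted p = 0.406). Without no Cre, low CHIR, replicate 1, the log2 difference of Atp5g1 in low CHIR was -0.11 and the difference between both effects 0.48 (adjusted p = 0.832). Cox6b2 with Ctnnb1 sgRNAs had -0.295 in low and 0.314 in high CHIR, a difference of 0.61 (SE 0.42, adjusted p = 0.85). Cox5a with Ctnnb1 sgRNAs had 0.121 in low and -0.143 in high CHIR, a difference of -0.26 (SE 0.27, adjusted p = 0.908). None of these interactions passed the test, and each group held 2 libraries.

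Cox8a, a small subunit gene of complex IV, had log2 differences of opposite sign for high against low CHIR in both kinds of control cells. Its log2 difference was -0.583 without Cre, from 7688 and 4480 counts in low to 3863 and 3974 in high CHIR, and 0.148 with GFP sgRNA, from 4544 and 4435 to 4932 and 5017. Libraries of high and low CHIR did not overlap in either case. The difference between these responses was not tested, and the higher of the no Cre values in low CHIR is that of the library that stood apart. Without it the log2 difference of Cox8a without Cre was -0.19 (SE 0.17, adjusted p = 0.604).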

How the results depend on the processing

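Counts of called members depended on the test more than medians did. With no library left out, each of the 14 medians moved by less than the spread between replicates in the other limma fits. These used a pseudocount of 0.5, no filter, TMM, CPM, the replicate block or only the groups compared. The same held for edgeR and DESeq2, which used the 33 libraries with recovered reads. When 1 library was left out, 6 of the 14 medians moved more. In wild-type high CHIR, CPM and DESeq2 each gave 6 members lower and DESeq2 gave 1 higher, and leaving out 1 library gave 0 to 1 higher and 0 to 4 lower. With no CHIR, CPM gave 2 higher and DESeq2 7, and leaving out 1 library gave 0 to 10 higher and 0 to 1 lower. For the CHIR response without Cre, 5 were lower with no filter, 17 by DESeq2, 20 with the replicate block, 0 with only the groups compared and 0 to 30 with 1 library left out. With GFP sgRNA, 0 were lower with no filter, and with only the groups compared 2 were lower and 1 higher. EdgeR, DESeq2 and the fits with 1 library left out had 1 library in a group there. In the QKO controls edgeR gave 0 higher and 1 lower, no filter 2 lower, CPM 11, the replicate block 11, only the groups compared 1 and a fold limit of 0.5 gave 2 lower. Leaving out 1 library there gave 0 to 2 higher and 1 to 11 lower. With Cre in high CHIR leaving out 1 library gave 0 to 1 higher (the 1 without no Cre, high CHIR, replicate 2). DESeq2 gave 1 higher for QKO in low CHIR, and the replicate block 3 higher for QKO in high CHIR. The block moved no other count by over 1.5 times. In the β-catenin table it rests on 2 pairs per comparison (correlations of 0.196 to 0.491), and no label ties the numbers to a culture or day. In the wild-type table (-0.016 to 0.177) the numbers were not taken as pairs.

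Of single genes, the log2 difference of Cox6b2 with Cre in low CHIR turned from -0.19 to 0.179 without no Cre, low CHIR, replicate 1 and to 0.163 without Cre, low CHIR, replicate 2 (range with 1 library left out -0.563 to 0.179). Without QKO, low CHIR, replicate 3, the median of the members for QKO in low CHIR was -0.03 in place of 0.07. CPM moved the median of all genes by 0.117 with Cre in low CHIR. Set against the SD of 0.11 between replicates without no Cre, low CHIR, replicate 1, the CPM median of the members in that comparison (-0.09 in place of -0.21) moved by more. Leaving out 1 of 2 libraries of a group takes the spread from the other groups. The values without single libraries for other gene lists were chosen after seeing the data.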
